A study of Bos taurus with 3 samples.

Results

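The miR-106b-25 and miR-106a-363 clusters are paralogous copies of the miR-17-92 cluster, each transcribed as one precursor that is cut into several miRNAs. They were followed here in small RNA from large dense-core vesicles, the organelles in which chromaffin cells of the bovine adrenal medulla store catecholamines and peptides. The 8 miRNAs were taken by name from the deposited count table. They were miR-106b, miR-93 and miR-25 of the first cluster, miR-106a, miR-18b, miR-20b and miR-363 of the second, and miR-92b, which is encoded apart from both and shares its seed with miR-25. They made up 8 of the 793 mature miRNAs in the table, and each had 1 hairpin row and 1 annotated arm.

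The series held 1 library labelled as a biological replicate and 2 labelled as technical replicates, all from vesicles of chromaffin cells of cows from a slaughterhouse. The labels gave no treatment, strain or age, and named neither the number of animals nor the step that was repeated for the technical pair. The technical pair was therefore averaged, and each mean ± SD was taken over n = 2 preparations. No whole-cell library was analysed here, so the values give what the vesicle preparations held and not how it compares with the cell. The libraries totalled 6708654 (biological replicate), 5546771 (technical replicate 1) and 6251664 counts (technical replicate 2). Levels are in CPM, counts scaled to a total of 1000000 per library, and the 3 counts that a count of 0 allows equalled between 0.447 and 0.541 CPM. miR-375 and miR-7, which mark endocrine cells, held 47.3% of the counts in the biological replicate and 44.1% and 42.8% in the technical pair. miR-375 had 416586 CPM in the biological replicate and 381396 and 358079 CPM in technical replicates 1 and 2. miR-7 went the other way, with 56414 CPM against 59224 and 70296 CPM, and neither passed the edgeR test used below. Intervals below are exact Clopper-Pearson 95% intervals and cover counting error only.

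The miR-17 family of clusters is known for promoting proliferation and survival, by repressing inhibitors of the cell cycle such as CDKN1A and pro-apoptotic proteins such as BCL2L11. In mammals miR-106b, miR-93 and miR-25 lie in an intron of MCM7, which encodes a subunit of the replicative DNA helicase, and the miR-106a-363 cluster lies on the X chromosome. The seed, the stretch near the 5′ end through which a miRNA pairs with its targets, is shared across the clusters. miR-106b, miR-93, miR-106a and miR-20b have the seed of miR-17 and miR-20a, miR-18b has that of miR-18a, and miR-25, miR-363 and miR-92b have that of miR-92a and miR-32. In the RefSeq gene table of assembly ARS-UCD2.0, all 3 hairpin genes of the first cluster lay within MCM7. In the same table the hairpin genes of miR-106a, miR-18b, miR-20b and miR-363 neighboured those of miR-19b-2 and miR-92a-2, and the protein-coding gene nearest to miR-92b was THBS3.

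The first cluster was abundant in the vesicle preparations, and the 4 miRNAs of the second were close to the limit of detection. Together the 8 miRNAs held 1.08% ± 0.161 of all miRNA counts (SD, n = 2). miR-106b, miR-93 and miR-25 held 1.16% of the counts in the biological replicate and 0.946% and 0.913% in technical replicates 1 and 2. miR-106a, miR-18b, miR-20b and miR-363 held 71 counts in the biological replicate, against 88 counts in technical replicate 1 and 87 in technical replicate 2. The first cluster thus had 1092 times the counts of these 4 miRNAs in the biological replicate (interval 865 to 1398), and 596 (484 to 744) and 656 times (532 to 820) in technical replicates 1 and 2.

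**Figure D1:**
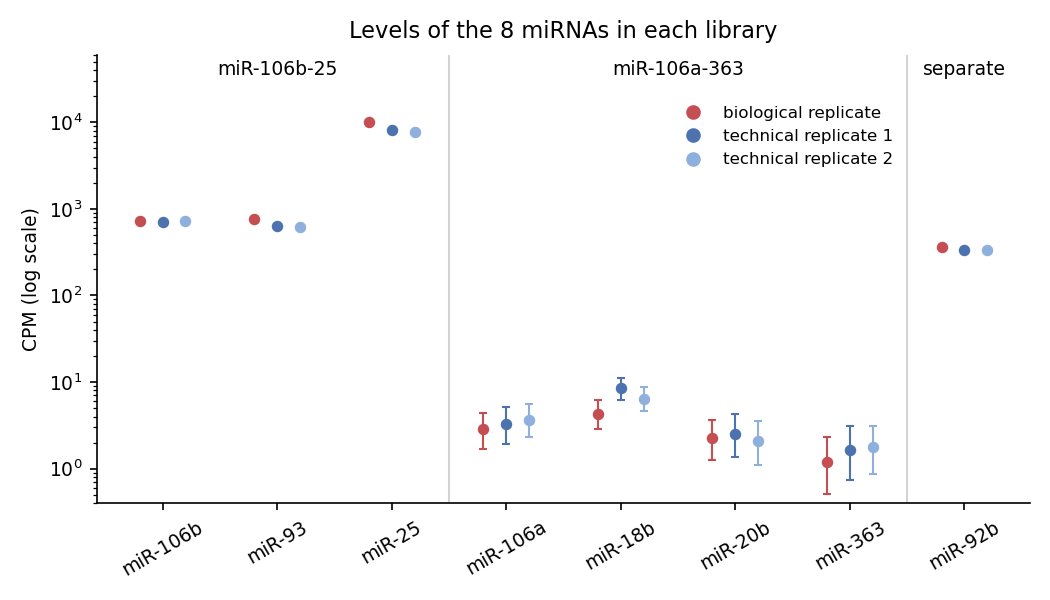
CPM on a log axis for the 8 miRNAs, with 1 point per library and exact 95% counting intervals. miR-25 lies between 7801 and 10056 CPM, miR-106b, miR-93 and miR-92b lie between 339 and 766 CPM, and the members of the miR-106a-363 cluster lie between 1.19 and 8.47 CPM.

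miR-25, which is known to repress the calcium pump SERCA2 in heart muscle, was the most abundant of the 8. It had 10056 CPM in the biological replicate and 8118 and 7801 CPM in technical replicates 1 and 2, where it ranked 17, 22 and 22 among all mature miRNAs. The biological replicate lay above both technical ones. The technical pair also differed by more than counting error, with a log2 ratio of replicate 2 over replicate 1 of -0.06 (interval -0.08 to -0.04). That gap was smaller than the log2 ratios of 0.31 and 0.37 of the biological replicate over technical replicates 1 and 2.

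miR-93, a miR-17 paralog that also represses CDKN1A, had 766 CPM in the biological replicate and 628 and 611 CPM in technical replicates 1 and 2. Its technical pair did not differ beyond counting error (log2 ratio of -0.04, interval -0.11 to 0.03), and the biological replicate lay above both. miR-106b, the first hairpin of the cluster and a repressor of CDKN1A, had 729 CPM in the biological replicate and 713 and 721 CPM in the technical pair. These 3 values of miR-106b lay within each other's counting intervals. miR-92b, known from neural progenitors, had 364 CPM in the biological replicate and 339 CPM in both technical replicates. The interval of its log2 ratio of the biological replicate over technical replicate 1 ran from 0.02 to 0.19, and over technical replicate 2 from 0.02 to 0.19.

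The members of the miR-106a-363 cluster were counted in every library, each above the limit of 3 counts. miR-18b had 4.32 CPM (29 counts) in the biological replicate and 8.47 and 6.40 CPM (47 and 40 counts) in technical replicates 1 and 2. Its interval in the biological replicate, 2.90 to 6.21 CPM, overlapped that of technical replicate 2 (4.57 to 8.71 CPM) and not that of technical replicate 1 (6.23 to 11.3 CPM). miR-106a had 2.83 CPM (19 counts) in the biological replicate and 3.25 and 3.68 CPM (18 and 23 counts) in the technical pair. miR-20b, whose counterparts by cluster position are miR-93 and miR-20a, had 15 counts in the biological replicate and 14 and 13 counts in the technical pair. miR-363, which shares its seed with miR-25, had 8 counts in the biological replicate and 9 and 11 counts in the technical pair. For miR-106a, miR-20b and miR-363 the intervals of all 3 libraries overlapped.

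By mean level, the order was miR-25 (9008 ± 1483 CPM), miR-106b (723 ± 8.37), miR-93 (693 ± 104), miR-92b (352 ± 17.7), miR-18b (5.88 ± 2.20), miR-106a (3.15 ± 0.445), miR-20b (2.27 ± 0.0465) and miR-363 (1.44 ± 0.353, all SD in CPM, n = 2). These are levels per mature miRNA, without correction for length. miR-106b and miR-93 were within their spread of each other and changed places between preparations. The ratio of miR-93 to miR-106b was 1.05 in the biological replicate (interval 1.01 to 1.09), and 0.881 (0.842 to 0.923) and 0.847 (0.811 to 0.885) in technical replicates 1 and 2. Among the scarce miRNAs, the intervals of the ratios of miR-106a to miR-20b and of miR-20b to miR-363 held 1 in every library. The ratio of miR-18b to miR-106a was 1.53 in the biological replicate with an interval of 0.827 to 2.88, which also holds 1, and 2.61 and 1.74 in the technical pair with intervals above 1.

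Although miR-106b, miR-93 and miR-25 are cut from a common precursor, miR-25 took most of their counts. It held 87.1% of the counts of the cluster in the biological replicate and 85.8% and 85.4% in technical replicates 1 and 2. miR-93 held 6.63% in the biological replicate and 6.64% and 6.69% in the technical pair, so that its share did not differ beyond counting error. miR-106b held 6.31% in the biological replicate (interval 6.14 to 6.48%) and 7.54% and 7.90% in the technical pair (7.31 to 7.77% and 7.68 to 8.12%). The miR-106b share was therefore lower in the biological replicate than in either technical library, by more than the gap within the technical pair. There were 13.8 counts of miR-25 for each count of miR-106b in the biological replicate, against 11.4 and 10.8 in technical replicates 1 and 2. For each count of miR-93 there were 13.1 counts of miR-25 in the biological replicate, against 12.9 and 12.8 in the technical pair. With 1 biological library these ratios have no test between preparations, and how far library preparation favours one of the 3 miRNAs was not tested.

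**Figure D2:**
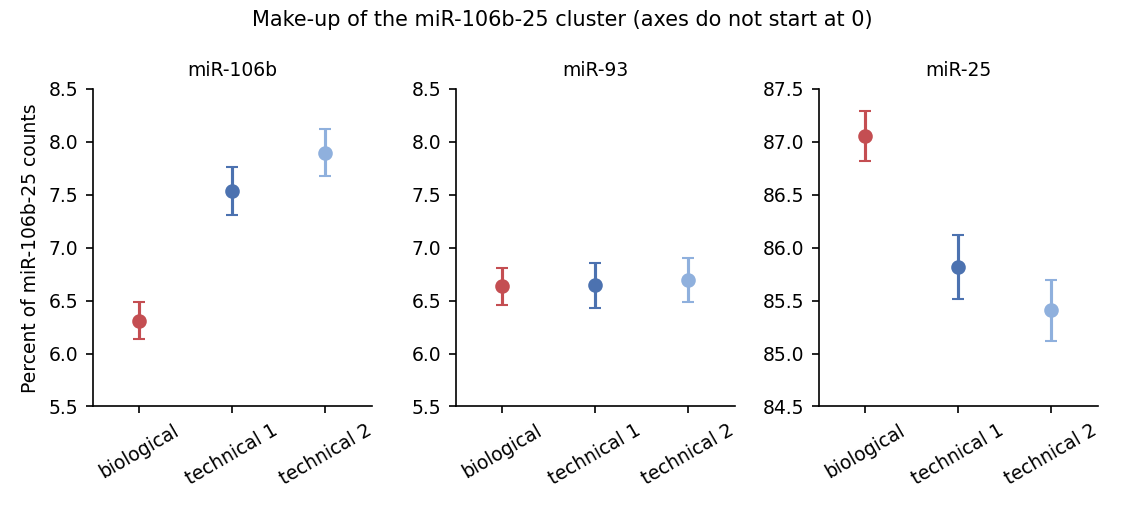
Percent of the miR-106b-25 counts held by miR-106b, miR-93 and miR-25 in each library, with exact 95% counting intervals and axes that do not start at 0. The biological replicate is lower for miR-106b (6.31%), close to the technical pair for miR-93 (6.63%) and higher for miR-25 (87.1%).

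Set beside the miR-17-92 cluster, the miR-106b-25 cluster held more counts. miR-106a, miR-18b, miR-20b and miR-363 each lay below the paralogs they were set beside. The miR-106b-25 cluster had 2.84 times the counts of the miR-17-92 cluster in the biological replicate (interval 2.80 to 2.88) and 2.52 times in both technical replicates (2.48 to 2.56 in each). At the position of miR-17, miR-106b had 257 times the counts of miR-106a in the biological replicate (165 to 428), and 220 (139 to 371) and 196 times (131 to 310) in technical replicates 1 and 2. miR-17-5p, the founding member of the family, had 426 CPM in the biological replicate and 382 and 383 CPM in the technical pair, below miR-106b in each library. At the position of miR-20, miR-93 and miR-20a were close to each other. The ratio of miR-93 to miR-20a was 1.07 in the biological replicate (1.03 to 1.12), and 0.837 (0.800 to 0.876) and 0.824 (0.789 to 0.860) in technical replicates 1 and 2.

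Of the 4 members of the miR-106a-363 cluster, miR-18b came nearest to its miR-17-92 paralog: miR-18a had 4.07 times the counts of miR-18b in the biological replicate (2.69 to 6.34), and 2.74 (1.95 to 3.92) and 3.30 times (2.30 to 4.83) in technical replicates 1 and 2. At the position of miR-92, miR-25 had 3.86 times the counts of miR-92a in the biological replicate (3.80 to 3.93) and 3.71 and 3.72 times in technical replicates 1 and 2 (3.64 to 3.79 in each). miR-92a in turn had 2604 CPM in the biological replicate and 2185 and 2099 CPM in the technical pair. miR-363, set beside miR-25 and miR-92a for the shared seed, had under 2 CPM in each library. The miR-106a-363 cluster also holds miR-92a-2, which yields miR-92a, so the level of that cluster at this position is not known. miR-106a, miR-20b and miR-18b are closely alike in sequence to miR-17-5p, miR-20a and miR-18a, so that their few counts could include reads of these paralogs. Of these, miR-18a was itself scarce, with 17.6 CPM in the biological replicate and 23.3 and 21.1 CPM in technical replicates 1 and 2.

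**Figure D3:**
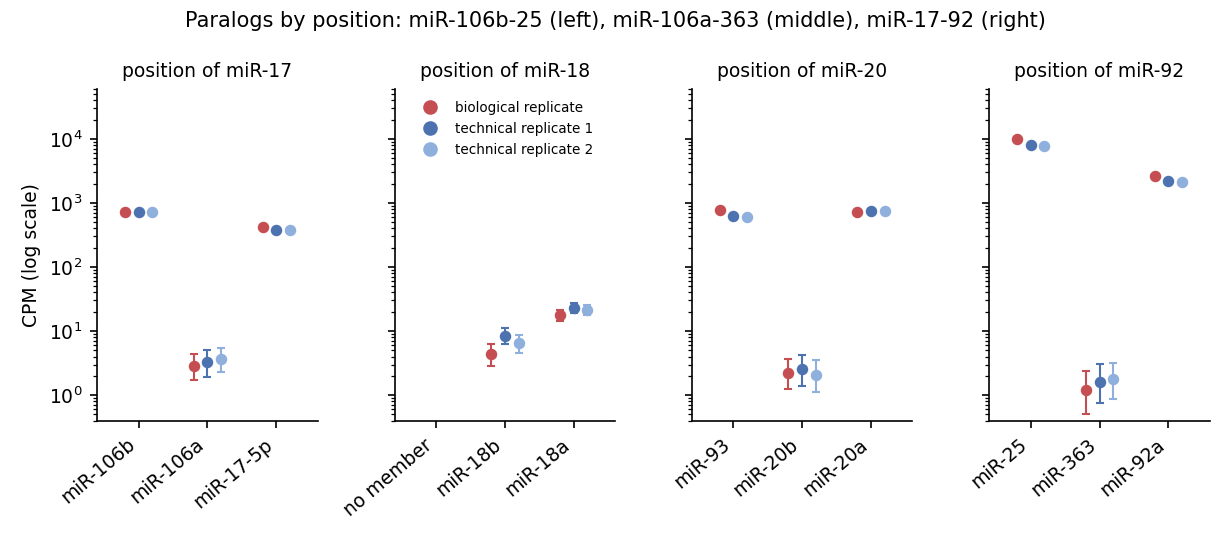
CPM on a log axis for the paralogs at 4 cluster positions, with 1 point per library and exact 95% counting intervals; within each panel miR-106b-25 is on the left, miR-106a-363 in the middle and miR-17-92 on the right. The miR-106a-363 member drawn is the lowest in every panel, and miR-18b comes nearest to its paralog. miR-363 is drawn at the position of miR-92, as nearly all counts of miR-92a-2 cannot be told from those of miR-92a-1.

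A further pair of hairpins of the X-linked cluster, miR-19b-2 and miR-92a-2, yields mature miRNAs that the miR-17-92 cluster also yields. The deposited table counted these miRNAs at both hairpins. miR-19b had 1647 counts at either hairpin in the biological replicate. In technical replicates 1 and 2 it had 1815 and 1942 counts at miR-19b-2 and 6 and 4 counts fewer at the miR-19b hairpin of the miR-17-92 cluster. miR-92a had 17112 counts at miR-92a-2 in the biological replicate and 11906 and 12851 counts in the technical pair, and 355 counts more at miR-92a-1 in the biological replicate and 216 and 273 counts more in the technical pair. The rows differed by 0.185% and 1.98% of their totals, so nearly all of these counts cannot be assigned to one of the clusters. The low level of the miR-106a-363 cluster therefore rests on miR-106a, miR-18b, miR-20b and miR-363 only.

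Grouped by seed, the 8 miRNAs carried the larger share of the counts in both large families. The family of miR-25 and miR-92 held 1.37% of all counts in the biological replicate and 1.13% and 1.08% in technical replicates 1 and 2, and miR-25, miR-92b and miR-363 made up 76.0%, 74.8% and 75.1% of it in the same libraries. miR-25 alone made up 73.3% of that family in the biological replicate and 71.8% and 71.9% in the technical pair. The miR-17 family held 0.264% of all counts in the biological replicate and 0.248% and 0.246% in the technical pair. miR-106b, miR-93, miR-106a and miR-20b made up 56.8% of the miR-17 family in the biological replicate (interval 56.1 to 57.6%) and 54.3% in both technical replicates (53.5 to 55.2% and 53.5 to 55.1%), nearly all of it miR-106b and miR-93. miR-18b made up 19.7% of the counts of the miR-18 pair in the biological replicate and 26.7% and 23.3% in the technical pair, with overlapping intervals.

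Between preparations, miR-25, miR-93 and miR-92b were higher in the biological replicate than in the technical pair in the main setting. That setting was edgeR with TMM scaling over miRNAs with 10 counts in some library. The other 5 did not pass in it, and miR-92b passed in few of the other settings. All 8 were among the 367 miRNAs that reached 10 counts in some library and were tested; miR-363 entered only through its 11 counts in technical replicate 2. Of the 8, 3 were higher and none lower at a Benjamini-Hochberg adjusted p below 0.05 in edgeR's quasi-likelihood test, beside 17.7% of all tested miRNAs that were higher and 20.2% that were lower. For miR-106b the unadjusted p of the same test was 0.033, which did not pass after adjustment. In DESeq2, which called 12% of all miRNAs higher and 11.4% lower, 2 of the 8 were higher (miR-25 and miR-93) and none lower; miR-92b did not pass (adjusted p = 0.11), and the 4 miRNAs of the X-linked cluster were given no adjusted p. With library totals, which called 6.54% higher and 23.4% lower, 1 of the 8 was higher (miR-25) and none lower. The median log2 fold change of the 8 was 0.18, against 0.01 over the 367.

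miR-25 rose by a log2 fold change of 0.52 ± 0.11 (SE, edgeR adjusted p = 1.4e-05), which is 1.43-fold. miR-93 rose by 0.49 ± 0.10 (SE, edgeR adjusted p = 4.3e-06), and miR-92b by 0.28 ± 0.10 (SE, edgeR adjusted p = 0.016). miR-106b had a log2 fold change of 0.20 ± 0.10 (SE) and did not pass (edgeR adjusted p = 0.078), although its hairpin lies beside those of miR-93 and miR-25; the difference between these fold changes was not tested. Among the scarce miRNAs, miR-18b had a log2 fold change of -0.59 ± 0.31 (SE, edgeR adjusted p = 0.13). miR-106a, miR-20b and miR-363 had -0.11 ± 0.36, 0.15 ± 0.39 and -0.32 ± 0.46 (SE), so a change of the size seen for miR-25 was not detectable for them at this depth.

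The call of miR-25 held under each of 9 settings of the test, with log2 fold changes from 0.34 to 0.53 and adjusted p-values from 6.4e-06 to 0.029 (edgeR and DESeq2). Set against technical replicate 1 or 2 alone, its log2 fold change was 0.45 and 0.57, and that of miR-93 was 0.42 and 0.53, with no test. miR-93 passed in 8 of the 9 and missed the threshold when library totals replaced TMM scaling (log2 fold change of 0.31, edgeR adjusted p = 0.052). miR-92b passed in 3 of the 9, and with library totals its log2 fold change was 0.10 (edgeR adjusted p = 0.47). It also missed the threshold with TMM scaling when other miRNAs were kept. The edgeR adjusted p was 0.072 without a count filter, 0.35 at a mean of at least 100 CPM and 0.054 without miR-375. TMM scaling raised the median log2 fold change of all miRNAs by 0.18 over library totals. Relative to that median, miR-25, miR-93, miR-92b and miR-106b stood at 0.51, 0.47, 0.27 and 0.19 with TMM scaling. With library totals they stood at 0.51, 0.48, 0.27 and 0.19. A change of scaling shifts all miRNAs nearly alike, so these values must nearly agree and are no check of the calls. Relative to the median of the miRNAs that averaged at least 100 CPM, the same 4 stood at 0.43, 0.40, 0.20 and 0.12. The spread of each miRNA in the test came from the technical pair alone, on 1 residual degree of freedom. edgeR combined it with a spread pooled over all tested miRNAs, and the small p-values rest largely on that pooled spread. The p-values therefore compare these libraries and say nothing of the spread between animals. Settings also differed in the weight of the pooled spread, so the calls did not turn on scaling alone. For miR-92b the unadjusted edgeR p was 0.0054 at an SE of 0.10 with TMM scaling. With DESeq2 size factors it was 0.018 at an SE of 0.086, for a log2 fold change of 0.28 in both.

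**Figure D4:**
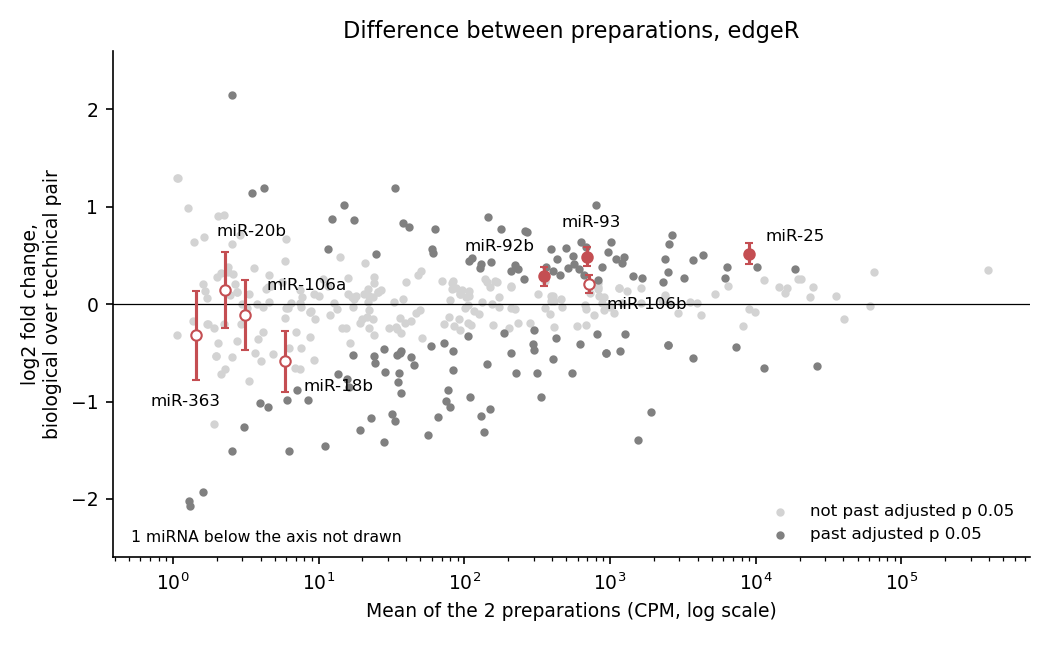
Log2 fold change of the biological replicate over the technical pair (edgeR) against the mean CPM of both preparations on a log axis, for the 367 tested miRNAs except 1 that lies below the axis; the 8 miRNAs carry SE bars and are filled where the adjusted p was below 0.05. miR-25, miR-93 and miR-92b lie above 0, and the scarce miRNAs have wide bars that reach toward or across 0.

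Among the related miRNAs of the miR-17-92 cluster and miR-32, 3 of 8 tested were higher in the biological replicate and none lower in the main setting. Their median log2 fold change was 0.01, and that setting called 17.7% of all miRNAs higher and 20.2% lower. With TMM scaling at a mean of at least 100 CPM, 1 of 5 was higher (miR-92a) and 1 lower (miR-19b). That filter called 15.6% of all miRNAs higher and 26.3% lower. With library totals, which called 6.54% of all miRNAs higher and 23.4% lower, none was higher and 2 were lower (miR-17-3p and miR-19b). miR-92a, the seed relative of miR-25, rose by 0.46 ± 0.09 (SE), miR-17-5p by 0.34 ± 0.10 and miR-32 by 0.30 ± 0.10 (edgeR adjusted p = 1.0e-05, 0.0029 and 0.0079). miR-20a, at 0.12, miR-18a, at -0.15, and miR-19b, at -0.20, did not pass. miR-17 was the only miRNA here with both arms annotated, and its 5p arm held 95.6% of the counts of the hairpin in the biological replicate and 93.0% and 93.3% in the technical pair.

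Across the 3 libraries, the miRNAs whose centred log2(CPM + 1) lay nearest to that of miR-25 were miR-382, miR-93, miR-486, miR-92a and miR-218, at Euclidean distances of 0.02, 0.03, 0.03, 0.05 and 0.06. The 166 candidates all averaged 100 CPM or more, and 15 of them lay within 0.1, so with 3 libraries a close pattern is not rare. miR-486 is known from red blood cells, where miR-25 is also expressed. It had 1080 CPM in the biological replicate and 873 and 816 CPM in technical replicates 1 and 2. The erythrocyte list of miR-451, miR-144 and miR-486 held 0.110% of the counts in the biological replicate and 0.0898% and 0.0837% in the technical pair. In it 1 of 2 tested members (miR-486) was higher, beside 17.7% of all tested miRNAs, and none was at 0. miR-451, the defining miRNA of red blood cells, had 16.8 CPM in the biological replicate and 23.6 and 20.2 CPM in the technical pair, and did not pass the test (log2 fold change of -0.19 ± 0.20 SE, edgeR adjusted p = 0.51). The part of red blood cells in the difference of miR-25 was not tested.

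Markers of vessel wall, connective tissue and white blood cells were lower in the biological replicate wherever the main setting called them. It called 20.2% of all tested miRNAs lower, and the setting with library totals 23.4%. The smooth muscle and fibroblast list held 1.02% of the counts in the biological replicate and 1.68% and 1.89% in technical replicates 1 and 2. In it 5 of 6 tested members were lower, and miR-145 did not pass (edgeR adjusted p = 0.78). Most of these counts were of miR-143, with 8206 CPM in the biological replicate and 13712.5 and 15656.5 CPM in the technical pair. miR-145 had 1.64 CPM against 2.52 and 1.92 CPM. Both endothelial arms of miR-126 were lower, and together they held 0.113% in the biological replicate and 0.182% and 0.189% in the technical pair. The leukocyte list held 0.0123% in the biological replicate and 0.0281% and 0.0280% in the technical pair, with 2 of 5 tested members lower, the other 3 (miR-142-3p, miR-150 and miR-155) not past the test, and none at 0. The RNA came from vesicle preparations, so these shares do not give the make-up of cells. Less material of a cell type and less RNA in that material cannot be told apart. The part of material from these cell types in the differences of miR-25, miR-93 and miR-92b was not tested.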

How the data were processed

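Small RNA libraries were prepared with an NEBNext small RNA kit from RNA of purified vesicles, per the labels' protocols. The deposited table gives raw read counts for 919 rows, each a mature miRNA on a hairpin, with CPM by the authors beside them. A second deposited table gives log2 values by the authors for 459 rows, equal to log2(CPM + 0.1) over those rows, and served as an alternative. Per the submitters' processing notes, the build was UMD3.1 and edgeR was used; no source used here gives the aligner or counter. Whether reads were deduplicated is not stated.

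Of 793 mature miRNAs, 73 have several hairpin rows, and the highest of these rows stood for the miRNA. CPM were recomputed on those totals. Differences of the biological library from the technical pair were fitted in edgeR 4.0.16 (TMM, quasi-likelihood test, R 4.3.3) over the 367 miRNAs that reached 10 counts in any library, with Benjamini-Hochberg adjustment at 0.05. An SE is the log2 fold change divided by the square root of F. The script was tested on simulated data. Alternatives were DESeq2 1.42.0, other scalings, filters and hairpin treatments, miR-375 left out, and single libraries left out. Gene neighbours came from a RefSeq table of another build (ARS-UCD2.0), so no coordinates are given. Named were the 8 miRNAs, the miR-17-92 cluster with miR-32, marker miRNAs, and the 5 nearest to the most abundant member by pattern. These members, lists and tests were chosen with earlier results of these data known.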

Additional observations from a re-analysis of the deposited data

How the results depend on the processing

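With library totals the number of the 8 miRNAs called was 1 in place of 3, while 30% of all tested miRNAs were called in place of 37.9%. miR-106b passed in 1 setting, with every hairpin row tested as deposited (log2 fold change of 0.21, edgeR adjusted p = 0.049). miR-92b had adjusted p-values from 0.0088 to 0.47 over the settings. In the authors' log2 values, the biological replicate minus the technical mean was 0.37 for miR-25 and 0.34 for miR-93. It was 0.13 for miR-92b and 0.055 for miR-106b, with no test. The main setting gave larger log2 fold changes of 0.52, 0.49, 0.28 and 0.20 for these 4. miR-20b, which passed in none, had a log2 fold change of -0.034 with library totals in place of 0.15. The 4 miRNAs of the miR-106a-363 cluster could not be fitted in the setting limited to a mean of at least 100 CPM. The share of the 8 miRNAs was 0.820% when hairpin rows were summed and 1.79% with miR-375 left out of the total. The share of the miR-106b-25 cluster was 0.792% and 1.73%, and that of the miR-106a-363 members 0.000965% and 0.00209%, in the same settings, because the total changes and the members' counts do not. With single libraries left out the 3 shares ran from 0.965% to 1.09%, from 0.930% to 1.05% and from 0.00122% to 0.00149%. The share of the 5p arm of miR-17 ran from 93.2% to 94.4%. Without a technical replicate 2 libraries remain and leave no residual degree of freedom, so only fold changes were computed, and without the biological replicate no comparison remains. No paired analysis was possible because there was 1 biological library and the labels give no pairing. Depth limits the miR-106a-363 members, with 8 to 47 counts per library.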
